A study of Mus musculus with 9 samples.

Results

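Genes of mitosis and cytokinesis were followed across the dorsal telencephalon of newborn mice that carried the transcription factor gene Tcf4 in wild-type (WT), heterozygous (Het) or knockout (KO) form. The set holds 49 genes of the G2/M transition, the spindle, the kinetochore, the chromosomes and cell separation, named by function and matched by symbol to Ensembl gene identifiers of the mouse build mm10. The set and the gene lists beside it were chosen with earlier results of these data known. All 49 were found among the 41128 genes of the count table, and all 49 passed the filter on low counts that left 15271 genes for testing. RNA was sequenced in 9 libraries, 3 for each genotype, from tissue dissected at birth (P0) and snap frozen. Every library carried the strain label B6:129SF2/J and the same tissue label, so the groups differ in the labels only by the genotypes TCF4 wild type, TCF4 heterozygote and TCF4 knockout. The labels do not give the Tcf4 allele, the parents, the litter, or whether a library came from 1 pup, so a p-value below compares genotypes only against a spread between libraries that may be technical.

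When a cell enters mitosis, cyclin-dependent kinase 1 and its cyclins drive chromosome condensation and spindle assembly. The spindle checkpoint then holds back the anaphase-promoting complex until every kinetochore is attached, and the central spindle and a contractile ring separate the daughter cells. Most of these genes are transcribed late in the cell cycle from promoters with a cell cycle genes homology region (CHR), read by the MuvB complexes with B-Myb and FoxM1, and with CCAAT boxes read by NF-Y. In the newborn cortex dividing cells are mainly radial glia, intermediate progenitors, glial progenitors, and vascular and immune cells, while most neurons no longer divide. Tcf4 encodes a basic helix-loop-helix protein of the E-protein family, which binds E-boxes.

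Some facts of the whole series bear on every value below. Total counts were 22291940 to 29445788 per library. Tcf4 itself had 584 to 728 CPM (counts scaled to a common library size) in WT, 652 to 822 in Het and 611 to 638 in KO, and passed the test in no comparison. Counts over the whole gene therefore do not check the genotype labels, and WT, Het and KO stand throughout for the libraries labelled so. KO replicate 3 differed from the other 8 libraries in the sex-linked genes, with 2730 counts of Xist and 2 of Ddx3y. WT replicate 2 stood apart in Fos, with 1926 counts against 84 and 95 in WT replicates 1 and 3. Fos had 19 to 76 counts in Het and 28 to 54 in KO, and its part in the results was not tested. Processed pseudogenes held 0.253% to 0.313% of the counts in WT, 0.0917% to 0.09998% in Het and 0.0804% to 0.0939% in KO. Mitochondrial genes held 1.015% to 1.14% of the counts in WT, 0.769% to 0.84% in Het and 0.716% to 0.771% in KO. The part of these shares in the results was not tested. Striatal neuron markers (10 genes) summed to 299 to 311 CPM in WT, 54.5 to 65.8 in Het and 46.7 to 48.3 in KO. Of the 10, 9 fell and none rose in KO versus WT, 10 fell in Het versus WT, and 1 fell and none rose in KO versus Het. Of all tested genes, 26.3%, 23.4% and 8.44% were called lower in these 3 comparisons. Isl1, a transcription factor of striatal projection neurons, had 315, 253 and 268 counts in WT, 0, 1 and 2 in Het and 3, 0 and 4 in KO, so a marker of that region was near 0 in every Het and KO library and present in every WT library. Isl1 was 1 of the 10 markers, whose log2 fold changes in KO versus WT ran from -7.15 to -0.43 (median -3.51). Markers of the dorsal telencephalon, the labelled tissue, were present in every library, with 7 of 10 higher and 1 lower in KO than in WT (26.5% and 26.3% of all tested genes).

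The promoters of 41 of the 49 genes were found in the RefSeq table of build GRCm38.p6, which gives 250 bases before and 50 after each annotated start. The sequences below show 170 bases before to 30 after the start on the coding strand, 5′ to 3′. Capitals mark TTTGAA, the core of the CHR element, and CCAAT, read on either strand (as TTCAAA and ATTGG on the other). Ccnb2, Cdk1 and Cdc20 are shown because they hold both elements near the start, Ncapd2 because its RNA rose most, and Melk because it holds neither. The start used can differ from that of the GENCODE M21 annotation. Ncapd2 runs to 125191701 there, so part of the bases shown before its start lie inside the gene.
Ccnb2, chr9:70421525-70421724, minus strand: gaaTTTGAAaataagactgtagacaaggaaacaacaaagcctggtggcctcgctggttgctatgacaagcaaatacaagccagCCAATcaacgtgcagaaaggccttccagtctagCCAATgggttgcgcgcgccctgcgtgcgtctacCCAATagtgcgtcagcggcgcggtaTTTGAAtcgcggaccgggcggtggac
Cdk1, chr10:69352883-69353082, minus strand: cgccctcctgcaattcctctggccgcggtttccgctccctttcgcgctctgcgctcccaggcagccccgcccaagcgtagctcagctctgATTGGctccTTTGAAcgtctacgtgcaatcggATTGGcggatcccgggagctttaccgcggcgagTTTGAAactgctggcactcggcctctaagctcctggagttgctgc
Cdc20, chr4:118437314-118437513, minus strand: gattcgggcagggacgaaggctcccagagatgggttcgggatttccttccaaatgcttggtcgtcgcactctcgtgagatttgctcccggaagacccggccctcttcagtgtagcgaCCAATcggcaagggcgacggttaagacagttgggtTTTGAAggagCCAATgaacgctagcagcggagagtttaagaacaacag
Ncapd2, chr6:125191557-125191756, minus strand: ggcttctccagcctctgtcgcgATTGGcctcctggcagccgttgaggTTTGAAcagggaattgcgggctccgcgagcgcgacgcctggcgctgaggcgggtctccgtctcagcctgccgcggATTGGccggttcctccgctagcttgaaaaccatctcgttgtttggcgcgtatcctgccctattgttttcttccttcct
Melk, chr4:44300747-44300946, plus strand: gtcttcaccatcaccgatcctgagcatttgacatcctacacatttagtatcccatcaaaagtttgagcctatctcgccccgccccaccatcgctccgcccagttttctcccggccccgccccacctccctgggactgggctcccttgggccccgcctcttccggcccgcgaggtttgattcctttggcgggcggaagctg

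Over the 300-base windows, searched on both strands, TTTGAA stood in 31 of 41 members (75.6%). The share was 18.1% of all 27025 promoters, the first listed for each gene symbol, and 11.5% of the 11504 promoters of tested genes. TTTGAA lay close to the start in most of the members that held it. A match began within 50 bases of the start in 28 of 41 members (68.3%), against 4.92% of all promoters, and the median position was 3 bases after it. Positions depend on the start used, the first listed for each gene, and 2 members had 2 starts. The start used equalled the RefSeq gene start in 21 of 41 members. In 32 of 41 the last bases of the window were found in a GENCODE transcript of the gene. CCAAT stood in 31 of 41 members (75.6% against 37.9% of all promoters), and 22 of 41 (53.7%) held at least 2, against 12.2% of all promoters. The median position of CCAAT was -65, counted from the start. TTTGAA and CCAAT occurred together in 26 members (63.4%), against 7.12% of all promoters. The related core TTTAAA stood in 9 members (21.95% against 13.2%). E-boxes, written CANNTG, were in 24 members (58.5% against 72.1% of all promoters and 63.3% of promoters of tested genes). Its forms CAGCTG and CAGGTG, both contained in CANNTG, were in 5 and 3 members (12.2% against 16.1% and 7.32% against 20.03%). These matches describe letters in the window and are not binding sites. The genes were grouped by function, and late cell cycle genes are known for CHR and CCAAT elements.

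**Figure D1:**
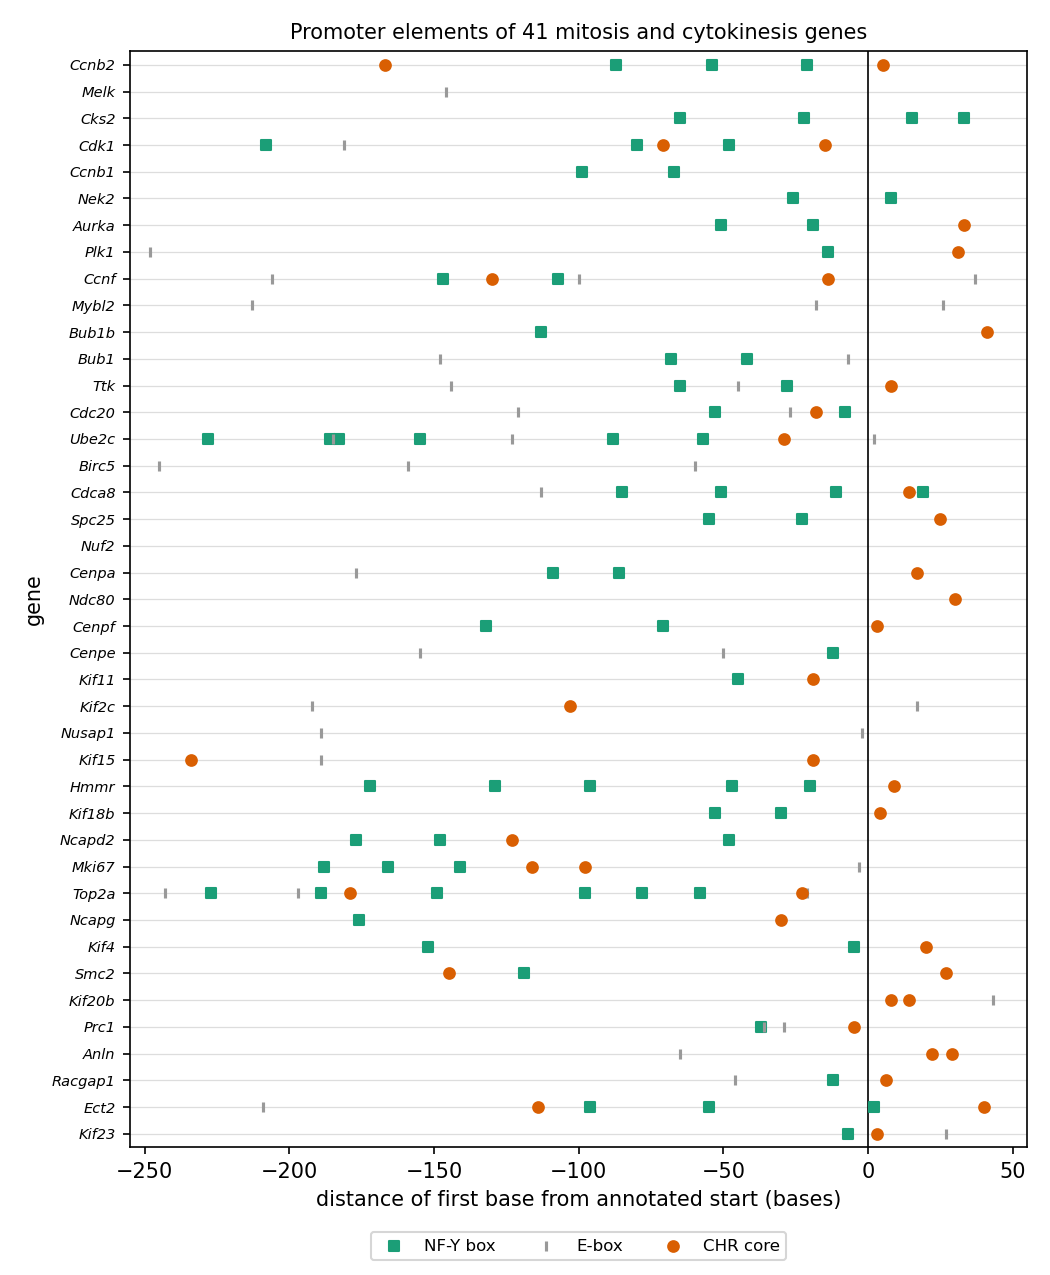
Position of CHR cores (TTTGAA, circles), NF-Y boxes (CCAAT, squares) and E-boxes (CANNTG, ticks) in the promoters of 41 mitosis and cytokinesis genes. The x axis gives the distance of the first base from the annotated start in bases, on either strand, and CHR cores gather close to the start, with 28 of 41 genes holding one within 50 bases. The start used equals the RefSeq gene start in 21 of 41 genes.

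All 49 genes rose in KO, and none fell in any comparison. Every KO library lay above every WT library for all 49 genes, a pattern that 31.9% of all tested genes showed. In KO versus WT, 49 of 49 passed the test as higher (edgeR's quasi-likelihood test, Benjamini-Hochberg adjusted p under 0.05), where 26.5% of all tested genes were called higher and 26.3% lower (52.8% in either direction). The median log2 fold change was 0.89, against 0.01 over all tested genes, and the values ran from 0.41 for Incenp to 2.14 for Ncapd2. The change reached 1.5-fold in 43 of 49 (10.8% of all tested genes were called and at least 1.5-fold higher) and 2-fold in 17 of 49 (4.59% of all tested genes). Leaving out any 1 library kept 47 of the 49 calls, and without KO replicate 3, the library that differed in sex-linked genes, 48 of 49 were called. The exceptions were Cenpe and Ttk, described below.

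The Het libraries lay between. Against WT, 34 of 49 genes rose in Het and 15 did not pass the test, 5 of which had an unadjusted p under 0.05 (22.5% of all tested genes were called higher and 45.9% in either direction). The change passed and reached 1.5-fold in 12 of 49, against 7.51% of all tested genes. The median log2 fold change was 0.46, against 0.01 over all tested genes. In KO versus Het, 29 of 49 rose and 20 did not pass, 10 of which had an unadjusted p under 0.05 (8.30% of all tested genes were called higher and 8.44% lower), with a median of 0.41, against 0.00 over all tested genes. Every Het library lay above every WT library in 41 of 49 genes (26.8% of all tested genes), and every KO library above every Het library in 41 of 49 (17.1%). The order WT below Het below KO held in every library for 35 of 49 genes, against 5.25% of all tested genes. Leaving out 1 library at a time gave 29 to 34 calls in Het versus WT and 20 to 28 in KO versus Het. The 3 comparisons share libraries: KO versus WT and Het versus WT share the WT libraries, and KO versus Het shares the KO and Het libraries with them.

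Summed over the 49 genes, the RNA of the set made up 486, 455 and 458 CPM in the WT libraries, 681, 670.0 and 712 in the Het libraries and 905, 893 and 940.1 in the KO libraries. The ratio of the means was 1.96 for KO over WT, 1.47 for Het over WT and 1.33 for KO over Het. The 3 groups did not overlap, and they did not overlap without Ncapd2 either (431 to 461 CPM in WT, 592 to 627 in Het and 776 to 832 in KO). In dissected tissue, more dividing cells and more of these RNAs per cell cannot be told apart. The striatal neuron markers had summed levels of 299 to 311 CPM in WT against 46.7 to 65.8 in Het and KO. They fell in the 2 comparisons against WT, where the 49 genes rose. In KO versus Het 1 of 10 striatal markers fell and none rose (8.44% of all tested genes were called lower), with a median log2 fold change of -0.03. The part of these markers in the rise was not tested.

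**Figure D2:**
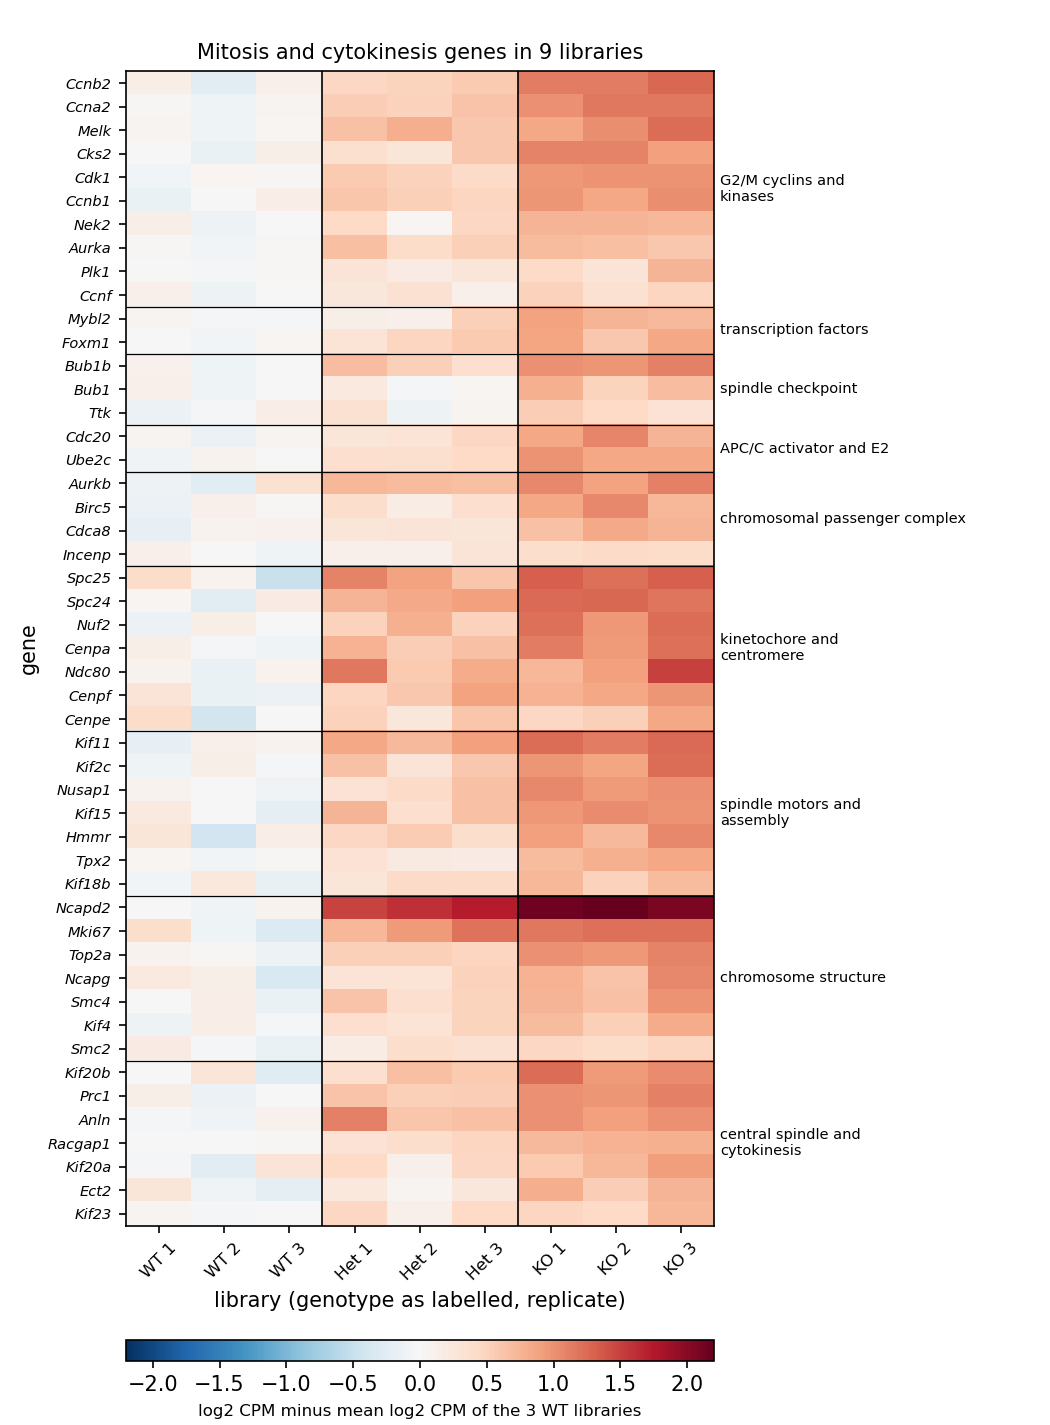
Heat map of 49 mitosis and cytokinesis genes (rows, grouped by role) in 9 libraries (columns). Colour gives log2 CPM minus the gene's mean log2 CPM over the WT libraries, and each gene is redder in all 3 KO libraries than in all 3 WT libraries.

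The cyclins and kinases that start mitosis rose in KO in 10 of 10 cases, by a median log2 fold change of 0.96. Of these, 7 rose in Het versus WT and 6 in KO versus Het. Of all tested genes, 26.5% were called higher in KO versus WT, 22.5% in Het versus WT and 8.30% in KO versus Het. Ccnb2, a B-type cyclin that activates Cdk1, had 5.6, 4.32 and 5.55 CPM in the WT libraries, 7.05, 7.17 and 7.61 in the Het libraries and 11.2, 11.2 and 12.3 in the KO libraries. The groups did not overlap, and Ccnb2 had the largest rise of the 10 in KO versus WT (log2 fold change 1.16 with SE 0.13, adjusted p 8.98e-07). It also had the largest difference of all 49 genes in KO versus Het (log2 fold change 0.67 with SE 0.12, adjusted p 0.00109). Cdk1, the kinase of the pair and the most abundant of the 10 per gene length (11.8 FPKM over all libraries), had 7.81, 8.33 and 8.22 CPM in the WT libraries, 12.1, 11.5 and 10.9 in the Het libraries and 15.8, 16 and 16.1 in the KO libraries. The 3 groups were again separate, with a log2 fold change of 0.97 (SE 0.095, adjusted p 2.53e-07) in KO versus WT and 0.47 (adjusted p 0.00175) in KO versus Het.

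Ccna2, cyclin A2, which acts in S phase and early mitosis, had 11.3, 10.5 and 11.7 CPM in WT, 16.2, 15.8 and 17.2 in Het and 22.3, 25 and 24.8 in KO. Ccnb1, cyclin B1, had 8.9, 9.8 and 10.9 CPM in WT, 14.9, 14.2 and 13.7 in Het and 19.3, 17.8 and 19.9 in KO. Both were ordered WT below Het below KO in every library, with log2 fold changes in KO versus WT of 1.11 (adjusted p 1.84e-08) and 0.94 (adjusted p 4.50e-07), and in KO versus Het of 0.55 (adjusted p 0.000186) and 0.41 (adjusted p 0.00561). Cks2, a small subunit that binds Cdk1, had 5.1, 4.54 and 5.55 CPM in WT, 6.48, 6.06 and 7.61 in Het and 10.7, 10.7 and 9.43 in KO. Its groups were separate too, and with Ccnb2 it was 1 of the 2 genes called and at least 1.5-fold higher in KO than in Het (log2 fold change 0.62 with SE 0.13, adjusted p 0.00324), where 1.98% of all tested genes were. The rise of Cks2 in Het versus WT (log2 fold change 0.41, adjusted p 0.0221) was lost without Het replicate 3 or WT replicate 2 (adjusted p 0.0803 to 0.102).

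Nek2, a kinase that splits the centrosomes, had 6.5, 5.48 and 5.9 CPM in WT, 8.08, 6.12 and 8.16 in Het and 9.94, 9.94 and 9.86 in KO. Its lowest Het library lay below its highest WT library, and it rose in KO versus WT (log2 fold change 0.73, adjusted p 0.000193) and in KO versus Het (log2 fold change 0.41, adjusted p 0.0368). The last call was lost without Het replicate 2, KO replicate 1, KO replicate 2, KO replicate 3 or WT replicate 3 (adjusted p 0.0520 to 0.173), while in Het versus WT (adjusted p 0.0609) Nek2 passed without Het replicate 2 (adjusted p 0.0130). Ccnf, cyclin F, a substrate receptor of an SCF ubiquitin ligase, changed least of the 10, with 8.22, 7.08 and 7.57 CPM in WT, 9.06, 9.58 and 8.2 in Het and 10.8, 9.6 and 10.6 in KO. Its lowest Het value fell just under the highest WT value, and only KO versus WT passed (log2 fold change 0.44 with SE 0.11, adjusted p 0.00400). Plk1, polo-like kinase 1, also passed only in KO versus WT (log2 fold change 0.50, adjusted p 0.00238). Aurka, the centrosomal Aurora kinase, and Melk, a kinase of dividing progenitors, had 7.43 ± 0.262 CPM in WT, 10.7 ± 0.922 in Het and 11.7 ± 0.387 in KO for Aurka and 3.77 ± 0.222 CPM in WT, 6.04 ± 0.489 in Het and 7.77 ± 1.02 in KO for Melk (SD, n = 3). Het versus WT passed for both (log2 fold change 0.53, adjusted p 0.000783 and 0.68, adjusted p 0.00101), while KO versus Het did not (log2 fold change 0.12, adjusted p 0.474 and 0.36, adjusted p 0.0750).

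Foxm1 and Mybl2 encode the transcription factors FoxM1 and B-Myb, which switch on late cell cycle genes. Foxm1 had 9.75, 9.26 and 9.98 CPM in WT, 11.8, 13.4 and 14.4 in Het and 17.6, 14.7 and 17.5 in KO, and Mybl2 had 5.1, 4.72 and 4.82 CPM in WT, 5.33, 5.28 and 7.02 in Het and 9.03, 8.15 and 7.97 in KO. The KO libraries were highest for both genes, and no groups overlapped. In KO versus WT they rose by 0.78 (SE 0.11, adjusted p 1.07e-05) and 0.78 (SE 0.14, adjusted p 0.000176) on the log2 scale. Against WT the Het log2 fold changes were 0.45 (adjusted p 0.00234) for Foxm1, which passed, and 0.27 (adjusted p 0.133) for Mybl2, which did not. In KO versus Het both passed (log2 fold change 0.32, adjusted p 0.0380 and 0.51, adjusted p 0.0157). The Foxm1 call there was lost without Het replicate 1, Het replicate 2, KO replicate 1, KO replicate 3, WT replicate 1 or WT replicate 3 (adjusted p 0.0538 to 0.165), and the Mybl2 call without Het replicate 1, Het replicate 2 or KO replicate 1 (adjusted p 0.0513 to 0.0835). The Foxm1 call was also lost with upper-quartile scaling, with limma on FPKM and in a fit of Het and KO alone (adjusted p 0.0517 to 0.0601).

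The spindle checkpoint genes rose in 3 of 3 cases in KO versus WT, in 1 of 3 in Het versus WT and in 2 of 3 in KO versus Het. Of all tested genes, 26.5%, 22.5% and 8.30% were called higher in these comparisons. The 1 of 3 in Het versus WT is near the share of all tested genes. Bub1b, which encodes the checkpoint protein BubR1, had 10.9, 9.58 and 10.2 CPM in the WT libraries, 16.4, 14.8 and 13.2 in the Het libraries and 20.6, 20.1 and 21.9 in the KO libraries. Its groups were separate, with a log2 fold change of 1.03 (SE 0.098, adjusted p 1.89e-07) in KO versus WT, 0.53 (adjusted p 0.000385) in Het versus WT and 0.50 (adjusted p 0.00130) in KO versus Het. Bub1, a kinetochore kinase, had 4.47, 3.88 and 4.13 CPM in WT, 4.84, 4.09 and 4.29 in Het and 7.18, 5.83 and 6.64 in KO. The Het libraries overlapped the WT libraries, and the log2 fold change of 0.08 in Het versus WT was the smallest of all 49 genes in that comparison (adjusted p 0.679). Bub1 rose in KO versus WT (log2 fold change 0.66, adjusted p 0.000902) and in KO versus Het (log2 fold change 0.57, adjusted p 0.00888), and the last call was lost without KO replicate 1 (adjusted p 0.0588). Ttk, the kinase Mps1 that starts checkpoint signalling, had 3.39, 3.65 and 4.09 CPM in WT, 4.67, 3.42 and 3.84 in Het and 5.37, 5.03 and 4.62 in KO. The Het libraries overlapped both other groups, and KO versus WT passed narrowly (log2 fold change 0.43 with SE 0.16, adjusted p 0.0300). That call was lost without KO replicate 1, KO replicate 2, WT replicate 1 or WT replicate 2 (adjusted p 0.0704 to 0.104), and with DESeq2 the adjusted p was 0.0667.

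Cdc20, the activator through which the anaphase-promoting complex starts anaphase, and Ube2c, its ubiquitin-conjugating enzyme, rose in all 3 comparisons. Cdc20 had 11.3, 9.89 and 11.2 CPM in the WT libraries, 13, 13.3 and 14.8 in the Het libraries and 19.5, 22.7 and 18.1 in the KO libraries. Ube2c had 9.26, 10.3 and 9.68 CPM in the WT libraries, 12.6, 12.5 and 13.2 in the Het libraries and 19.2, 17.5 and 17.5 in the KO libraries. Neither gene had overlapping groups. Cdc20 rose by 0.89 (SE 0.10, adjusted p 1.93e-06) in KO versus WT, 0.34 (adjusted p 0.0140) in Het versus WT and 0.55 (adjusted p 0.00111) in KO versus Het on the log2 scale. For Ube2c these values were 0.89 (SE 0.092, adjusted p 4.84e-07), 0.39 (adjusted p 0.00262) and 0.50 (adjusted p 0.000871). The Cdc20 call in Het versus WT was lost without Het replicate 3 or WT replicate 2 (adjusted p 0.0603 to 0.0638). The exons of Cdc20 overlap those of Elovl1 on the opposite strand, and Elovl1 had a log2 fold change of -0.08 in KO versus WT.

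The chromosomal passenger complex, which corrects faulty attachments and later acts at the midzone, rose in 4 of 4 subunit genes in KO versus WT. Of these, 2 rose in Het versus WT and 3 in KO versus Het. The shares of all tested genes called higher were 26.5%, 22.5% and 8.30% in these 3 comparisons. Cdca8, which encodes Borealin and was the most abundant of the 4 per gene length (10.3 FPKM), had 9.84, 11.7 and 11.8 CPM in WT, 13.4, 13.5 and 13.3 in Het and 17.3, 19.7 and 18.6 in KO. The 3 groups were separate (log2 fold change 0.74, adjusted p 6.51e-06 in KO versus WT, 0.27, adjusted p 0.0322 in Het versus WT and 0.47, adjusted p 0.00217 in KO versus Het). Its call in Het versus WT was lost without Het replicate 1, Het replicate 2, Het replicate 3 or WT replicate 1 (adjusted p 0.0527 to 0.143), with DESeq2 and in a fit of WT and Het alone (adjusted p 0.0515 to 0.0576). Aurkb, the kinase of the complex, rose most in KO versus WT, with 5.55, 5.08 and 7.53 CPM in WT, 9.88, 9.64 and 9.41 in Het and 12.4, 11.1 and 12.8 in KO and a log2 fold change of 0.998 (SE 0.14, adjusted p 1.05e-05). Its groups did not overlap, and KO versus Het did not pass (log2 fold change 0.33, adjusted p 0.0941).

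Birc5, which encodes Survivin, had 3.12, 3.7 and 3.49 CPM in WT, 4.47, 3.86 and 4.43 in Het and 6.21, 7.16 and 5.71 in KO. The lowest Het library lay just above the highest WT library, and Het versus WT did not pass (log2 fold change 0.31, adjusted p 0.110), while KO versus WT (log2 fold change 0.89, adjusted p 9.10e-05) and KO versus Het (log2 fold change 0.58, adjusted p 0.0102) did. The KO versus Het call was lost without Het replicate 2 or KO replicate 2 (adjusted p 0.0514 to 0.0726). Incenp, the scaffold of the complex, had the smallest rise of all 49 genes in KO versus WT, with 22, 20.4 and 19.1 CPM in WT, 22.1, 22.2 and 24.8 in Het and 26.7, 27.5 and 27.2 in KO and a log2 fold change of 0.41 (SE 0.079, adjusted p 0.000376). The groups were separate, by 22 against 22.1 CPM at the closest WT and Het libraries. Incenp passed in KO versus Het with little margin (log2 fold change 0.24, adjusted p 0.0442), and the call was lost without any 1 of 8 libraries, all but Het replicate 3 (adjusted p 0.0527 to 0.143). It was also lost with each of 9 other settings, among them both other scalings, both other filters, DESeq2, limma and the replicate block (adjusted p 0.0501 to 0.115).

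The kinetochore and centromere genes had the highest median of the 9 roles in KO versus WT, 1.09, with 7 of 7 higher. In Het versus WT 6 of 7 rose, and in KO versus Het 3 of 7. The shares of all tested genes called higher were 26.5%, 22.5% and 8.30% in these 3 comparisons. The Ndc80 complex, which binds microtubule ends, has 4 subunits, and all 4 of their genes rose at least 2-fold in KO versus WT and passed in Het versus WT. Spc25 had 5.19, 4.14 and 2.8 CPM in WT, 8.36, 7.27 and 5.98 in Het and 9.73, 9.06 and 9.7 in KO, and Spc24 had 3.39, 2.81 and 3.74 CPM in WT, 5.49, 5.89 and 6.12 in Het and 7.81, 7.88 and 7.47 in KO. Nuf2 had 5.1, 6.1 and 5.64 CPM in WT, 7.95, 9.68 and 7.99 in Het and 13, 10.9 and 13.1 in KO. These 3 genes had separate groups, with log2 fold changes in KO versus WT of 1.23 (SE 0.18, adjusted p 3.14e-05), 1.22 (SE 0.14, adjusted p 1.64e-06) and 1.13 (SE 0.13, adjusted p 1.47e-06). The fourth subunit gene, Ndc80, had 2.14 ± 0.192 CPM in WT, 3.9 ± 0.796 in Het and 4.52 ± 1.33 in KO (SD, n = 3) and a log2 fold change of 1.08 (adjusted p 0.000508) in KO versus WT. Its KO libraries overlapped the Het libraries. In KO versus Het, Nuf2 (log2 fold change 0.53, adjusted p 0.00696) and Spc24 (log2 fold change 0.40, adjusted p 0.0434) passed, and Spc25 (log2 fold change 0.40, adjusted p 0.126) and Ndc80 (log2 fold change 0.22, adjusted p 0.517) did not. The Spc24 call was lost without Het replicate 1, Het replicate 2, Het replicate 3, KO replicate 1, KO replicate 2, KO replicate 3 or WT replicate 1 (adjusted p 0.0536 to 0.134), and also with upper-quartile scaling, no filter, DESeq2 and the replicate block (adjusted p 0.0539 to 0.0679).

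Cenpa, the histone H3 variant that marks centromeres, was the most abundant of the 7 per gene length (11.2 FPKM) and had 7.68, 6.95 and 6.58 CPM in WT, 12, 10.3 and 11 in Het and 15.4, 13.6 and 16.3 in KO. Its groups were separate in all 3 comparisons, with 1.09 (adjusted p 4.63e-07) in KO versus WT and 0.45 (adjusted p 0.00850) in KO versus Het. Cenpf, an outer kinetochore protein, had 12.2 ± 2.12 CPM in WT, 19.1 ± 2.76 in Het and 21.9 ± 1.56 in KO (SD, n = 3). It passed in Het versus WT (log2 fold change 0.65, adjusted p 0.000608) and not in KO versus Het (log2 fold change 0.20, adjusted p 0.292). Cenpe, the kinetochore kinesin that aligns chromosomes, had 7.68, 4.41 and 5.81 CPM in WT, 8.28, 6.94 and 8.89 in Het and 8.02, 8.38 and 10.5 in KO. WT replicate 1 was its highest WT library and lay above the lowest Het library, and the KO and Het libraries overlapped. Cenpe rose in KO versus WT (log2 fold change 0.59 with SE 0.18, adjusted p 0.0112), and the call was lost without KO replicate 3 or WT replicate 2 (adjusted p 0.0572 to 0.0608). In Het versus WT it did not pass (log2 fold change 0.43, adjusted p 0.0608), but it did without WT replicate 1 (adjusted p 0.00816) or Het replicate 2 (adjusted p 0.0411).

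Genes of spindle motors and assembly rose in 7 of 7 cases in KO versus WT, 5 of 7 in Het versus WT and 4 of 7 in KO versus Het. The shares of all tested genes called higher were 26.5%, 22.5% and 8.30%. Kif11 encodes Eg5, the kinesin that pushes the spindle poles apart, and had 9.03, 11 and 10.8 CPM in the WT libraries, 18.4, 16.8 and 19.2 in the Het libraries and 24.1, 22.2 and 24.2 in the KO libraries. Its groups were separate, and its rise in KO versus WT was the largest of the 7 (log2 fold change 1.19 with SE 0.095, adjusted p 2.36e-08). Kif11 also rose in Het versus WT (log2 fold change 0.82, adjusted p 3.50e-06) and KO versus Het (log2 fold change 0.37, adjusted p 0.00862), the last lost with limma on log2(FPKM + 0.1), at adjusted p 0.0565. Tpx2, which activates Aurora A and nucleates microtubules, was the most abundant of the 7 per gene length (10.8 FPKM), with 21, 19.6 and 20.7 CPM in the WT libraries, 25.3, 23.4 and 23.2 in the Het libraries and 33.2, 35.1 and 37 in the KO libraries. The groups were separate, with the Het libraries nearer to WT than to KO. Its log2 fold change was 0.23 (adjusted p 0.0194) in Het versus WT, lost without Het replicate 1 or WT replicate 2 (adjusted p 0.0631 to 0.0717), against 0.55 (adjusted p 5.96e-05) in KO versus Het and 0.78 (adjusted p 2.08e-07) in KO versus WT.

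Nusap1, a protein that bundles microtubules near chromosomes, had 8.22, 7.84 and 7.45 CPM in WT, 9.8, 10.4 and 12.2 in Het and 16.2, 14.9 and 15.7 in KO. Kif2c, the microtubule depolymerase MCAK, had 4.11, 4.77 and 4.26 CPM in WT, 6.8, 5.35 and 6.61 in Het and 8.61, 7.96 and 10.3 in KO. Both had separate groups and rose in KO versus WT (log2 fold change 0.995, adjusted p 8.22e-07 and 1.03, adjusted p 1.54e-05) and in KO versus Het (log2 fold change 0.53, adjusted p 0.00187 and 0.52, adjusted p 0.0161). The Kif2c call in KO versus Het was lost without Het replicate 2 or KO replicate 3 (adjusted p 0.0816 to 0.0860). Kif18b, a plus-end kinesin, changed least of the 7 in KO versus WT, with 3.97, 4.81 and 3.66 CPM in WT, 4.96, 5.52 and 5.5 in Het and 6.87, 5.86 and 6.67 in KO and a log2 fold change of 0.64 (SE 0.14, adjusted p 0.00120). In Het versus WT its adjusted p was 0.0508, and it passed without WT replicate 2 (0.0215) or Het replicate 1 (0.0483). Kif15, a second kinesin that keeps the poles apart, and Hmmr, a spindle assembly factor, had log2 fold changes in KO versus WT of 0.98 (adjusted p 3.87e-05) and 0.87 (adjusted p 0.000568). Neither passed in KO versus Het (log2 fold change 0.40, adjusted p 0.0675 and 0.43, adjusted p 0.0937), except Kif15 without Het replicate 1 (adjusted p 0.0494). Hmmr missed the threshold in Het versus WT (log2 fold change 0.43, adjusted p 0.0583) and passed it without WT replicate 1 (adjusted p 0.0304).

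Among the genes of chromosome structure, 7 of 7 rose in KO versus WT, 6 of 7 in Het versus WT and 3 of 7 in KO versus Het. The shares of all tested genes called higher were 26.5%, 22.5% and 8.30%. Top2a, topoisomerase II alpha, which untangles sister chromatids, had 41.8, 40.4 and 36.4 CPM in the WT libraries, 57, 56.7 and 55 in the Het libraries and 79.5, 76.3 and 84.5 in the KO libraries. The groups did not overlap, with a log2 fold change of 1.02 (SE 0.067, adjusted p 2.16e-09) in KO versus WT, 0.51 (adjusted p 1.15e-05) in Het versus WT and 0.51 (adjusted p 4.13e-05) in KO versus Het. Mki67 encodes Ki-67, which coats mitotic chromosomes and is the common marker of cycling cells, and had 23.7, 16.8 and 14.7 CPM in WT, 29.8, 34.6 and 41.1 in Het and 40.2, 41.5 and 41.9 in KO. All Het libraries lay above all WT libraries, while Het replicate 3 lay within the KO range. Its log2 fold change was 1.16 (adjusted p 0.000363) in KO versus WT, 0.94 (adjusted p 0.00181) in Het versus WT and 0.23 (adjusted p 0.408) in KO versus Het, which did not pass. Kif4, a chromosome-arm kinesin on the X chromosome, had 6.05, 7.22 and 6.33 CPM in WT, 8.4, 8.05 and 9.1 in Het and 10.6, 9.41 and 11.5 in KO. KO replicate 3, which differed in the sex-linked genes, was the highest of the KO libraries, and KO replicates 1 and 2 also lay above every WT and Het library. Kif4 rose in KO versus WT (log2 fold change 0.68, adjusted p 0.000168) and in Het versus WT (log2 fold change 0.38, adjusted p 0.0177), the latter call being lost without Het replicate 3, WT replicate 1 or WT replicate 3 (adjusted p 0.0591 to 0.0645).

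Ncapd2 stood apart from the other 48 genes. It encodes a non-SMC subunit of condensin I, the complex that compacts mitotic chromosomes (ENSMUSG00000038252, chr6:125168007-125191701, minus strand, GENCODE M21 on mm10). It had 25.5, 24.2 and 26.9 CPM in the WT libraries, 71.8, 77.9 and 84.8 in the Het libraries and 113, 117 and 108 in the KO libraries. The Het libraries were all far above WT, and the KO libraries were all above Het. The change was 4.41-fold in KO versus WT (log2 fold change 2.14 with SE 0.070, adjusted p 3.55e-13), 3.06-fold in Het versus WT (log2 fold change 1.61 with SE 0.070, adjusted p 1.77e-11) and 1.44-fold in KO versus Het (log2 fold change 0.53 with SE 0.065, adjusted p 3.02e-05). The next largest log2 fold change among the members in KO versus WT was 1.23, of Spc25. Per gene length Ncapd2 came after Racgap1 in WT (25 ± 1.4 against 27.1 ± 0.44 FPKM, SD, n = 3) and was the most abundant of the 49 in Het (79.4 ± 6.91) and KO (113 ± 3.44).

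The other condensin genes did not show changes of that size. Smc2 and Smc4, the ATPase subunits shared by condensin I and II, had 23.8, 20.3 and 18.8 CPM in WT, 23.3, 27.2 and 26.4 in Het and 28.7, 27.7 and 29 in KO for Smc2 and 21.5, 23.5 and 19.3 CPM in WT, 33, 27.5 and 29.98 in Het and 36, 33.4 and 42.6 in KO for Smc4. In Smc2 the lowest Het library lay below the highest WT library, and in Smc4 the groups were separate. Their log2 fold changes in KO versus WT were 0.44 (SE 0.090, adjusted p 0.000545), the smallest of the 7, and 0.80 (SE 0.10, adjusted p 5.76e-06). Smc2 passed in Het versus WT (log2 fold change 0.29, adjusted p 0.0137), a call lost without Het replicate 2 or WT replicate 3 (adjusted p 0.0591 to 0.0870), and Smc4 passed in KO versus Het (log2 fold change 0.31, adjusted p 0.0398), a call lost without Het replicate 2, Het replicate 3, KO replicate 1, KO replicate 3 or WT replicate 1 (adjusted p 0.0667 to 0.196). The Smc4 call was also lost with a filter of at least 1 CPM in 3 libraries, with limma on FPKM, in a fit of Het and KO alone and with the replicate block (adjusted p 0.0530 to 0.0932). Ncapg, the partner of Ncapd2 in condensin I, had 2.57 ± 0.485 CPM in WT, 3.27 ± 0.279 in Het and 4.52 ± 0.715 in KO (SD, n = 3), and passed only in KO versus WT (log2 fold change 0.82, adjusted p 0.00118).

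The 4 condensin genes outside the set were looked up after the Ncapd2 values had been seen. Ncaph, the kleisin of condensin I, had a log2 fold change of 0.59 (adjusted p 0.000637) in KO versus WT. Among the condensin II genes, Ncapd3 and Ncaph2 had 0.42 (adjusted p 0.000675) and 0.17 (adjusted p 0.0215). Ncapg2 had 7.81, 7.71 and 7.75 CPM in WT, 12.6, 13.9 and 13.2 in Het and 11.5, 13.3 and 13.4 in KO. For Ncapg2 the log2 fold change was 0.71 (adjusted p 2.10e-05) in KO versus WT, 0.77 (adjusted p 1.43e-05) in Het versus WT and -0.06 (adjusted p 0.755) in KO versus Het, and the KO and Het libraries overlapped. Genes within 50 kb of Ncapd2, also chosen after its values were seen, were Chd4, Nop2, Iffo1, Gapdh, Mrpl51, Mir3098, Vamp1 and Tapbpl. Their log2 fold changes in KO versus WT ran from -0.94 (Vamp1) to 0.32 (Mir3098). Mrpl51, whose start faces that of Ncapd2, had 0.18. Scarna10 and Gm28967, which lie inside Ncapd2 on its strand, had 0 counts in every library. Which transcripts or exons of Ncapd2 the reads came from cannot be read from counts per gene.

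**Figure D3:**
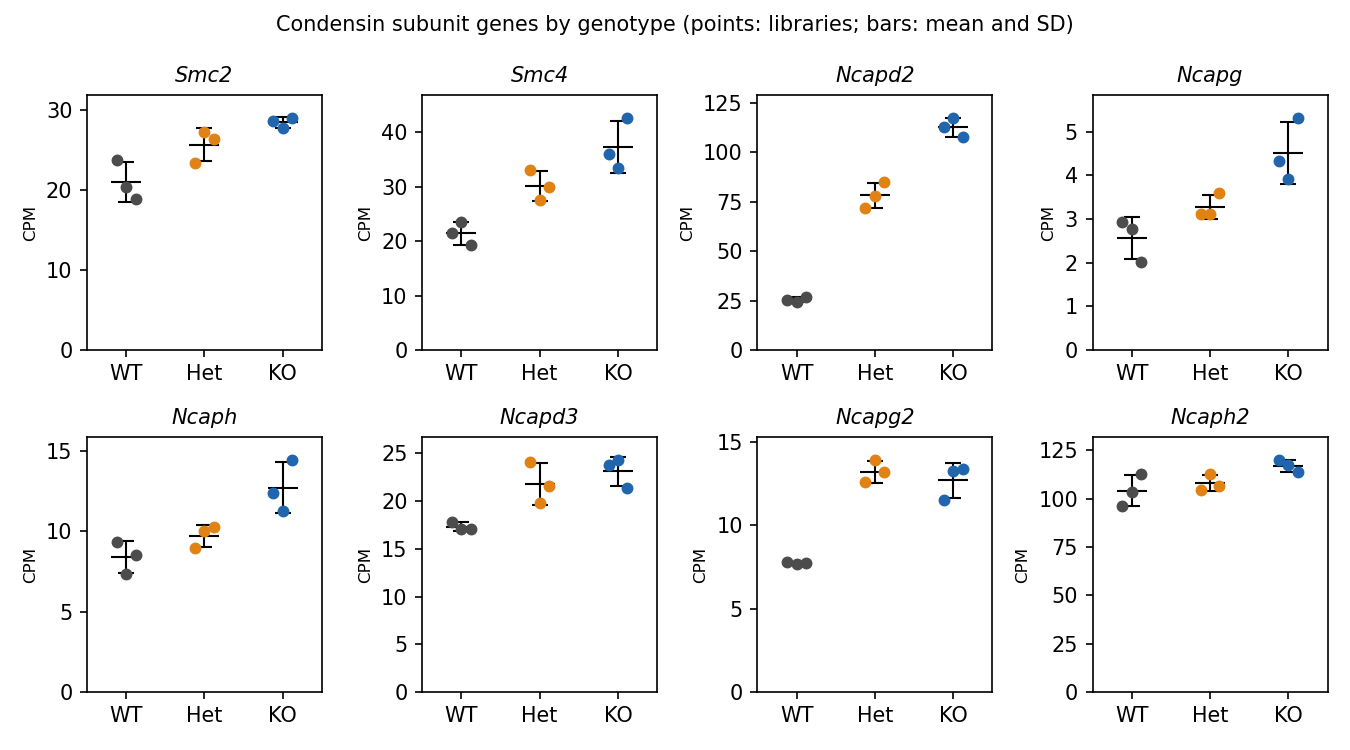
CPM of 8 condensin subunit genes by genotype, with points for libraries and bars for the mean and SD of 3 libraries. Each panel starts at 0 on its own scale, and Ncapd2 is the panel where WT (24.2 to 26.9 CPM), Het (71.8 to 84.8) and KO (108 to 117) are furthest apart.

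Genes of the central spindle and cytokinesis rose in 7 of 7 cases in KO versus WT, 4 of 7 in Het versus WT and 4 of 7 in KO versus Het. The shares of all tested genes called higher were 26.5%, 22.5% and 8.30%. Racgap1 and Kif23 encode both subunits of centralspindlin, the complex that organises the midzone. Racgap1 was the most abundant of the 7 per gene length (37 FPKM) and had 36.4, 36.3 and 37.1 CPM in the WT libraries, 45.6, 47.6 and 50.6 in the Het libraries and 60.2, 62.3 and 63.3 in the KO libraries. Kif23 had 4.97, 4.59 and 4.69 CPM in WT, 6.52, 5.11 and 6.4 in Het and 6.55, 6.44 and 7.84 in KO. The Racgap1 groups were separate and tight, with a log2 fold change of 0.76 (SE 0.064, adjusted p 4.82e-08) in KO versus WT and 0.37 (adjusted p 0.000599) in KO versus Het. Kif23 changed least of the 7 in KO versus WT (log2 fold change 0.55 with SE 0.14, adjusted p 0.00361), and its KO libraries overlapped the Het libraries. Kif23 missed the threshold in Het versus WT (log2 fold change 0.34, adjusted p 0.0638) and passed it without Het replicate 2 (adjusted p 0.0261).

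Prc1, which cross-links the midzone microtubules, had 13.1, 11 and 12.1 CPM in WT, 18.7, 17.3 and 17.6 in Het and 24.2, 23.6 and 25.9 in KO. The groups were separate, and all 3 comparisons passed (log2 fold change 1.02, adjusted p 5.46e-08 in KO versus WT, 0.56, adjusted p 7.28e-05 in Het versus WT, 0.46, adjusted p 0.00104 in KO versus Het). Ect2, the exchange factor that activates RhoA at the cleavage furrow, had 9.39, 7.44 and 6.84 CPM in WT, 9.14, 8.15 and 9.34 in Het and 13.6, 11.4 and 13.1 in KO. The Het libraries overlapped WT and lay apart from KO, with 0.17 (adjusted p 0.304) in Het versus WT and 0.52 (adjusted p 0.00903) in KO versus Het, the latter not passing without KO replicate 1 (adjusted p 0.0559). Anln, the scaffold anillin of the contractile ring, had 3.66, 3.52 and 3.96 CPM in WT, 7.99, 5.65 and 5.81 in Het and 7.43, 6.97 and 7.47 in KO. Het and KO libraries of Anln overlapped, with 0.80 (adjusted p 0.000448) in Het versus WT and 0.17 (adjusted p 0.463) in KO versus Het.

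Kif20b, a midbody kinesin with a part in cortical growth, was the least abundant gene of the set per gene length (0.54 FPKM) and had 1.99, 2.36 and 1.64 CPM in WT, 2.54, 3.11 and 2.94 in Het and 4.6, 3.77 and 4.05 in KO. Its groups were separate, and it rose most of the 7 in KO versus WT (log2 fold change 1.05 with SE 0.18, adjusted p 0.000123). The calls for Kif20b in Het versus WT (log2 fold change 0.53, adjusted p 0.0294) and KO versus Het (log2 fold change 0.53, adjusted p 0.0431) were close to the threshold. The first was lost without Het replicate 2, Het replicate 3, WT replicate 1 or WT replicate 3 (adjusted p 0.0616 to 0.132), and the second without any 1 of 7 libraries, all but WT replicates 2 and 3 (adjusted p 0.0539 to 0.184). With DESeq2 and with limma on FPKM neither passed, and with the replicate block the second did not (adjusted p 0.0607 to 0.0702 and adjusted p 0.0648 to 0.145). Kif20a, which carries the passenger complex to the midzone, passed in KO versus WT (log2 fold change 0.73, adjusted p 0.00112), had an adjusted p of 0.118 in Het versus WT and 0.0879 in KO versus Het, and passed in Het versus WT without WT replicate 3 (adjusted p 0.0468).

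**Figure D4:**
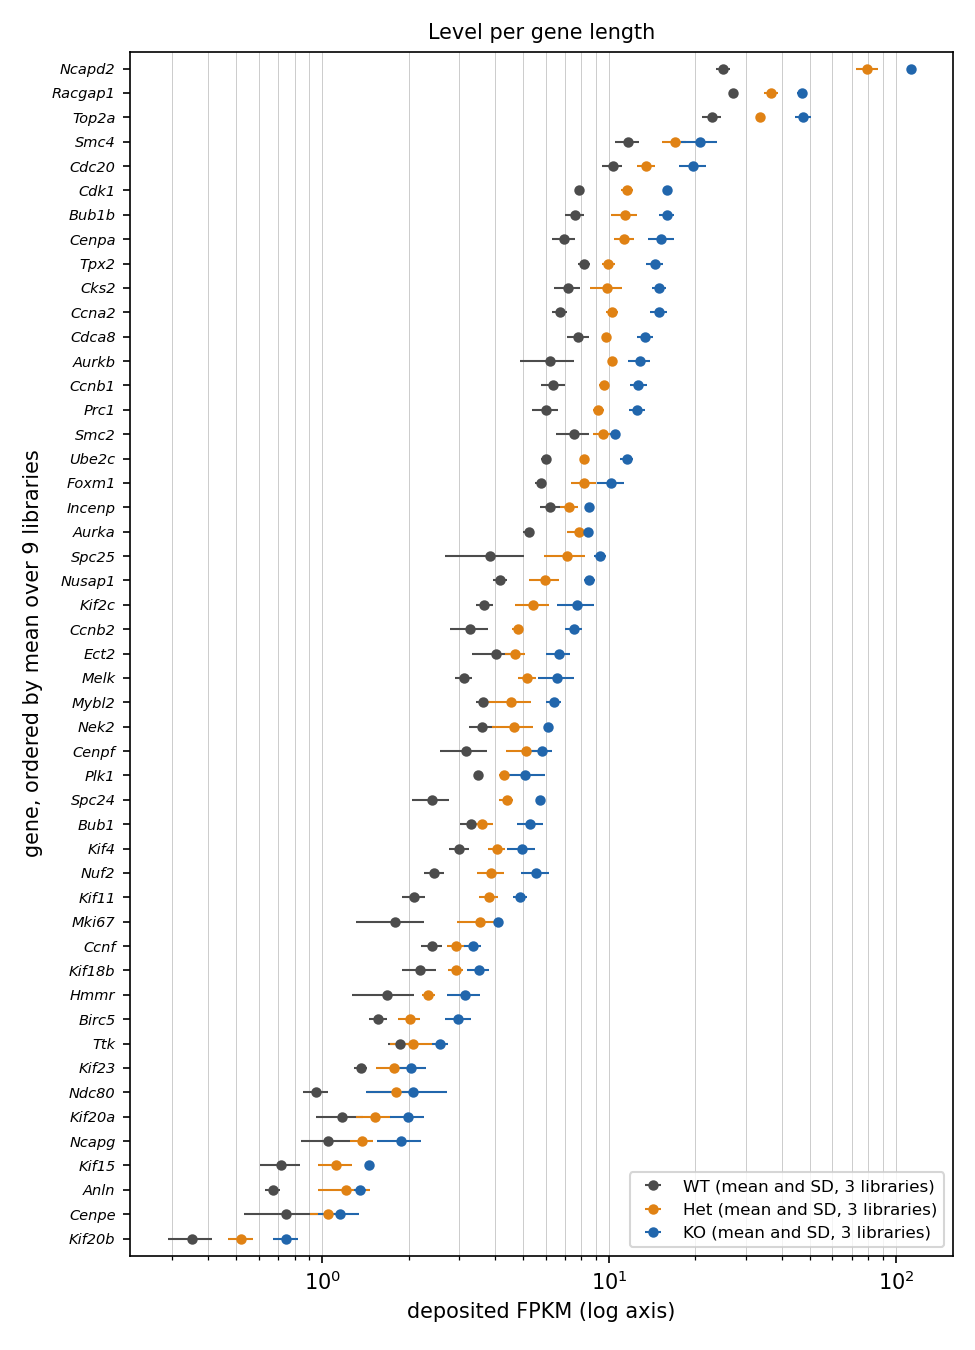
Deposited FPKM of the 49 genes on a log axis, ordered by the mean over 9 libraries, as mean and SD of 3 libraries per genotype. Kif20b is lowest and Ncapd2 highest, and the KO mean lies to the right of the Het mean and the Het mean to the right of the WT mean for all 49 genes.

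The Het mean lay between the WT and KO means for all 49 genes. The share of all tested genes with this order of means was not counted. On the log2 scale the Het change reached 12.3% of the KO change for Bub1, 22% for Ttk, 24.7% for Ect2 and 29.6% for Tpx2. At the other end it reached 82.1% for Anln, 81% for Aurka, 80.6% for Mki67 and 79.6% for Ndc80. A contrast of Het with the midpoint of WT and KO on the log2 scale, added after these values had been seen, tested each gene's departure. Only Ncapd2 passed (log2 fold change 0.54 with SE 0.057, adjusted p 4.58e-06, above the midpoint), where 11.7% of all tested genes were called above the midpoint and 12.7% below it. Of the 49 genes, 7 had an unadjusted p under 0.05, and 28 lay above the midpoint. With other settings 0 to 3 genes passed, and those were Ncapd2, Kif11, Mki67, Cenpf, Aurka and Ndc80. Leaving out WT replicate 1 gave 3, and leaving out WT replicate 2, Het replicate 2 or KO replicate 3 gave 2. A p above the threshold does not show that Het lies at the midpoint.

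**Figure D5:**
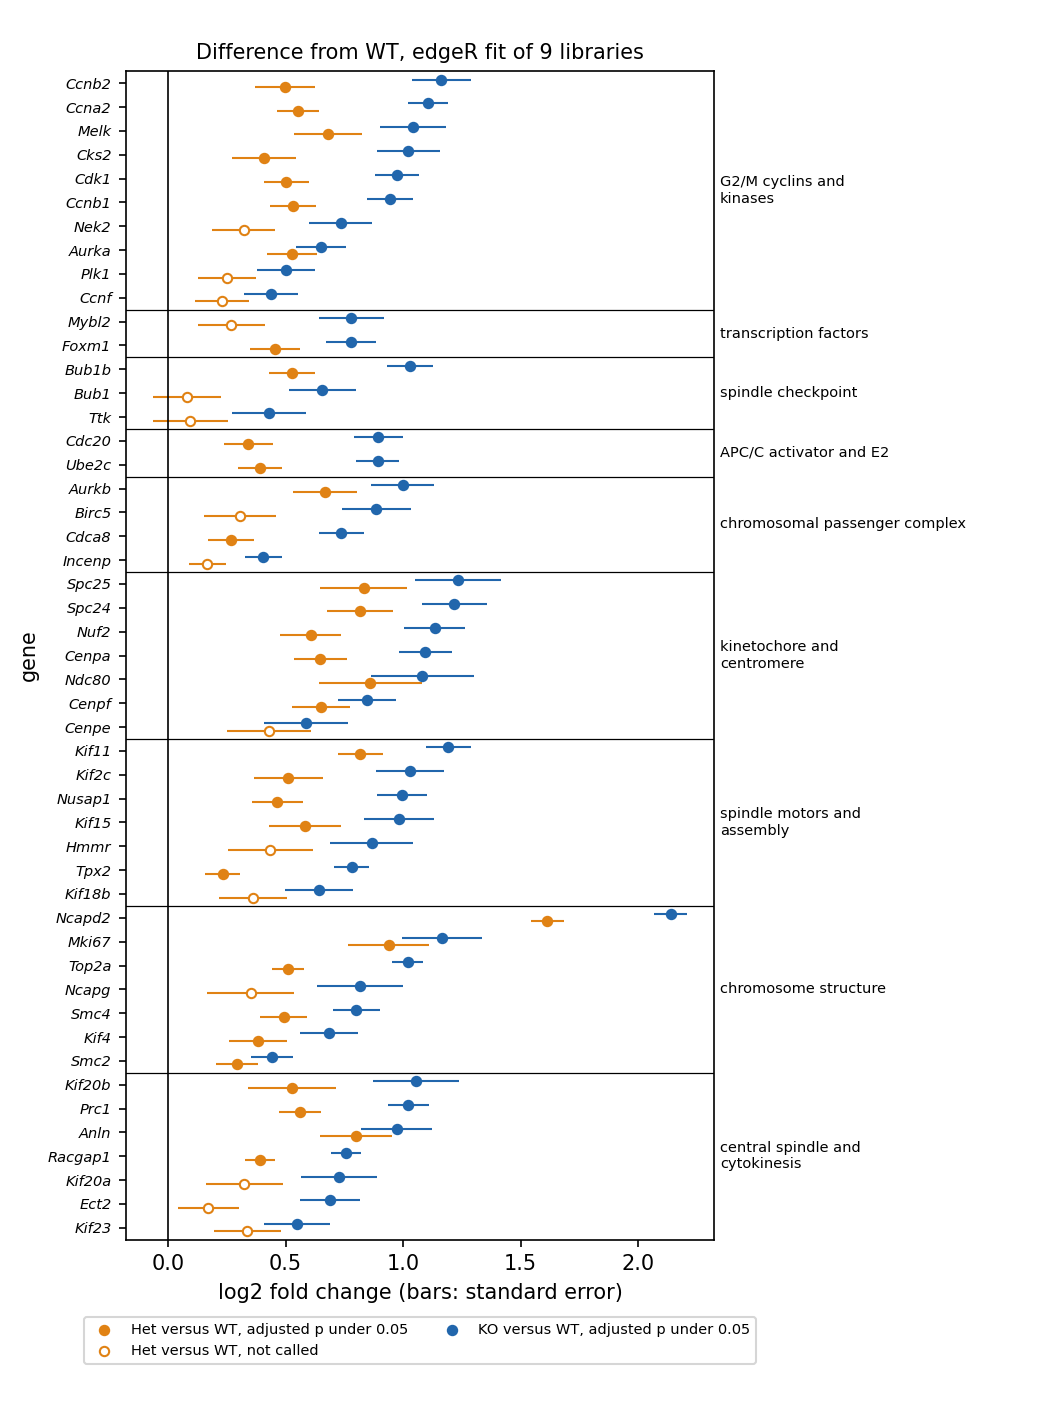
Log2 fold changes of the 49 genes, grouped by role, for Het versus WT (orange) and KO versus WT (blue) in the edgeR fit of 9 libraries, with bars for the standard error. Filled points passed an adjusted p under 0.05; all KO versus WT points are filled, and Ncapd2 lies furthest to the right.

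The libraries of a genotype did not share the high values evenly. WT replicate 1 held the highest WT value for 26 of 49 genes and WT replicate 2 the lowest for 26. Among the Het libraries, replicate 3 was highest for 21 and replicate 2 lowest for 24. In KO, replicate 3 was highest for 27 and replicate 2 lowest for 27. These counts were not made over all tested genes, so whether the split is particular to this set was not tested. Mki67 was an example in WT, where replicate 1 had 23.7 CPM and replicates 2 and 3 had 16.8 and 14.7.

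Counting could mix some members with other genes, since the labels say nothing of strand or of reads with more than 1 match. Exons of 11 members overlap exons of another gene on the opposite strand. Among these partners, Oip5 (with Nusap1) had a log2 fold change of 1.05 in KO versus WT, 9930104L06Rik (with Cdca8) 0.63, Rccd1 (with Prc1) 0.60 and Exosc9 (with Ccna2) 0.56. Pdzd11 (with Kif4), Lcorl (with Ncapg) and Cdc23 (with Kif20a) had 0.28, 0.25 and 0.16. Sequence shared with other loci was measured as the share of 31-base words of a gene's transcripts found on either strand in transcripts of other genes (GENCODE M21). It was highest for Cks2 (31.7%), Ccnb1 (27.8%), Cdc20 (26.7%), Kif20a (26.7%) and Ube2c (25.3%), so the levels of these are less certain. The 31 members with under 5% shared words were also fitted with only the 10256 genes of that kind. There 31 of 31 were called higher in KO versus WT (28.1% of the genes in that fit), 26 of 31 in Het versus WT (25.2%) and 16 of 31 in KO versus Het (9.78%).

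Other genes of cell division moved in the same direction, in part. Of 88 tested genes in a list of other G2/M genes, 69 rose and 3 fell in KO versus WT (median 0.64), 50 rose and 3 fell in Het versus WT, and 15 rose and none fell in KO versus Het. Of all tested genes, 26.5%, 22.5% and 8.30% were called higher and 26.3%, 23.4% and 8.44% lower in these 3 comparisons. The largest rises in KO versus WT were in Hjurp, the chaperone that places CENP-A at centromeres (log2 fold change 1.93, adjusted p 2.35e-12), Cdca3, a trigger of mitotic entry (log2 fold change 1.58, adjusted p 3.87e-08), and Fbxo5, which encodes the anaphase-promoting complex inhibitor Emi1 (log2 fold change 1.38, adjusted p 1.18e-06). Hjurp had 17.7, 17.4 and 19.3 CPM in WT, 66.2, 59.7 and 66.1 in Het and 65.8, 70 and 72 in KO. It rose in Het versus WT (log2 fold change 1.82, adjusted p 7.86e-12), and KO versus Het did not pass (log2 fold change 0.11, adjusted p 0.282). The genes that fell were Cit, the citron kinase of the midbody (log2 fold change -1.07, adjusted p 2.77e-07), Pttg1, which encodes securin (log2 fold change -0.71, adjusted p 0.00275), and Anapc1, a scaffold of the anaphase-promoting complex (log2 fold change -0.16, adjusted p 0.00862). Cit had 34.3, 28.3 and 26.9 CPM in WT, 13.7, 14.6 and 15.1 in Het and 14.4, 12.4 and 15.9 in KO, with both other groups below WT. Cit is also transcribed in neurons. The most abundant genes of the list that did not pass in KO versus WT were Anapc5, another subunit of that complex (log2 fold change 0.07, adjusted p 0.268), Fzr1, its activator Cdh1 (log2 fold change -0.05, adjusted p 0.444), and Bub3, a checkpoint protein (log2 fold change 0.07, adjusted p 0.321).

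DNA replication genes rose in 32 of 40 cases and fell in 1 in KO versus WT (median 0.54), against 26.5% and 26.3% of all tested genes. Against WT 28 rose in Het and none fell (22.5% and 23.4% of all tested genes). In KO versus Het 11 rose and 1 fell (8.30% and 8.44%). Orc1, the largest subunit of the origin recognition complex, had 1.19 (adjusted p 0.0134) in KO versus WT from a low level (0.339 ± 0.11 CPM in WT, 0.917 ± 0.262 in Het and 0.781 ± 0.117 in KO, SD, n = 3), and Cdt1, the licensing factor, had 1.12 (adjusted p 2.46e-07). Gins4, a subunit of the replicative helicase, fell (log2 fold change -0.22, adjusted p 0.0446). Of 25 tested genes that restrain division or belong to the DREAM complex, 17 rose and 2 fell in KO versus WT (median 0.31). Against WT 10 rose and 4 fell in Het, and in KO versus Het 11 rose and none fell. The 2 with the largest rises in KO versus WT were Gadd45g, a growth arrest gene (log2 fold change 1.33, adjusted p 1.99e-07), and Btg3, an antiproliferative factor (log2 fold change 1.26, adjusted p 2.62e-06). Gadd45g is also among the intermediate progenitor markers counted below, so these 2 lists are not separate. Cdkn1a, which encodes the kinase inhibitor p21, fell (log2 fold change -0.60, adjusted p 0.00164), as did Rb1, the retinoblastoma gene (log2 fold change -0.32, adjusted p 0.000732).

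Markers of several cell types differed with genotype beside the mitosis genes. In KO versus WT, 26.5% of all tested genes were called higher and 26.3% lower. Intermediate progenitors, the basal cells that divide to give neurons, had 10 of 12 tested markers higher and none lower in KO versus WT (median 1.31). Their summed level was 157 to 187 CPM in WT, 319 to 352 in Het and 484 to 528 in KO, and the groups did not overlap. Neurog2, a proneural factor, had 6.59, 5.34 and 4.82 CPM in WT, 29.3, 23.5 and 24.1 in Het and 63.7, 59.9 and 61.9 in KO (log2 fold change 3.47, adjusted p 3.55e-13 in KO versus WT), and Eomes, which encodes Tbr2, had 17.2, 12.1 and 18.5 CPM in WT, 58.8, 56.4 and 64 in Het and 81.9, 82 and 96 in KO (log2 fold change 2.44, adjusted p 1.30e-07). Both were ordered WT below Het below KO in every library. Neurog1, another marker of the list, did not pass the filter.

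Radial glia, the apical progenitors, had no common direction. Of 12 markers 5 rose and 4 fell in KO versus WT (26.5% and 26.3% of all tested genes), and the summed level was 1949 to 2097 CPM in WT, 1639 to 1759.8 in Het and 1639.7 to 1742 in KO. Vim, the intermediate filament vimentin, was among those that rose (log2 fold change 1.09, adjusted p 4.38e-10), and the largest rise of the list was 1.30. The largest falls were in Ptprz1, a receptor phosphatase also made by glial progenitors (log2 fold change -0.87, adjusted p 9.06e-09), and Fam107a, a marker of outer radial glia (log2 fold change -0.82, adjusted p 0.000676).

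Most markers of glia and microglia, other cells that can divide in this tissue, were lower in KO than in WT. The counts in this paragraph stand beside 26.5% of all tested genes called higher and 26.3% lower in that comparison. All 9 oligodendrocyte lineage markers fell, with summed levels of 424 to 460.0 CPM in WT, 232 to 238 in Het and 229.8 to 263 in KO. Of 9 astrocyte markers 8 fell (848 to 904 CPM in WT, 443 to 485 in Het and 368 to 425 in KO), and of 9 microglia markers 7 fell (120.0 to 136 CPM in WT, 71.4 to 72.9 in Het and 76.3 to 81.5 in KO). None of these 3 lists had a marker that rose in KO versus WT or a marker at 0 in any library. Endothelium and pericyte markers rose in 4 of 9 cases and fell in 1 (288 to 293 CPM in WT, 337 to 366 in Het and 349 to 361 in KO). Interneurons and the ventral germinal zone had 1 of 11 markers higher and 8 lower (488 to 531 CPM in WT, 378 to 393 in Het and 372 to 397 in KO), and postmitotic neurons had 7 of 11 lower and none higher (10217 to 10784 CPM in WT, 9356 to 10055 in Het and 9239 to 9607 in KO). Erythroid markers had 1 of 6 tested higher, and markers of choroid plexus and meninges 3 of 7, with summed levels of 189.7 to 363 CPM in WT, 210.0 to 307 in Het and 292 to 368 in KO and 8.43 to 17.9 CPM in WT, 22.1 to 30.4 in Het and 19 to 40.6 in KO. The part of these cell types in the rise of the mitosis genes was not tested.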

How the data were processed

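The members and gene lists were chosen with earlier results of these data known. For 9 libraries, a table of gene read counts and a table of FPKM were deposited by the authors. The libraries were made with an RNeasy Plus kit and an NEBNext Ultra kit per the labels' protocols. The submitters' processing notes list HTSeq 0.6.1, DESeq 1.10.1, TopHat2 2.0.9 and Bowtie2 2.0.6 with build mm10, but no role for any tool. The deposited FPKM equal counts divided by 1 gene length and the library total, so they are not a separate measurement. They are used only to compare levels between genes and in 2 alternatives.

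Counts were fitted with edgeR 4.0.16 in R 4.3.3 (filterByExpr with minimum count 10 and minimum total 15, TMM factors, robust quasi-likelihood fit of all 9 libraries, 6 residual degrees of freedom). Benjamini-Hochberg adjustment ran over 15271 genes at 0.05. CPM use TMM-scaled library sizes. SE is the log2 fold change over the square root of F. The fit was tested on simulated data with 66 or 67 of 15271 genes changed at each size, far fewer than were called in the real data. Of 1.5-fold changes it recovered 58.2% in KO versus WT, 65.7% in Het versus WT and 68.7% in KO versus Het. For 2-fold changes the range was 79.1% to 88.1%, and for 4-fold changes 97.0% to 98.5%. False calls numbered 7, 15 and 16 in the 3 comparisons. Replicate pairs differed beyond counting noise, by 2.92 to 21.0 in chi-square per gene, and each library was counted as 1 replicate. Alternatives used DESeq2 1.42.0 and limma 3.58.1, other scalings and filters, and leaving out each library. The contrast with the midpoint, the other condensin genes and the neighbours of Ncapd2 were added after values had been seen.

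Genes named by rule were, in each role, those with the highest FPKM, the largest and smallest change in KO versus WT, and those called in KO versus Het, with SE printed for part of them. In the lists, they were the 3 genes called with the largest size in each direction and the 3 most abundant not called (other G2/M genes), or the 2 largest in each direction. Among radial glia markers that rose, only Vim is named, which did not have the largest rise. Values in each library are also given for Mki67, Kif4 and Anln, chosen after their values had been seen.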

Additional observations from a re-analysis of the deposited data

How the results depend on the processing

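Every called member kept its direction under every alternative run. Members higher in KO versus WT numbered 49 with each scaling, filter and limma fit and 48 with DESeq2 (Ttk lost), and 47 to 49 when 1 library was left out. Among the 31 members with under 5% shared words, 31 were called, a lower number because fewer genes were tested. In Het versus WT 32 to 38 were called with other scalings, filters and tools, 29 to 34 with 1 library left out, and 12 when a 1.5-fold change was also required. In KO versus Het 24 to 28 were called with other scalings, filters and tools, 20 to 28 with 1 library left out, 2 with a 1.5-fold minimum and 16 among the members with under 5% shared words. For Het against the midpoint of WT and KO, 2 members passed with upper-quartile factors, 3 with no filter, 2 with at least 1 CPM in 3 libraries, 2 with DESeq2, 2 with limma on log2(FPKM + 1), 2 on log2(FPKM + 0.1) and 0 with a 1.5-fold minimum, and 1 to 3 with 1 library left out. The cause of these shifts was not tested. Under at least 1 other scaling, filter, tool, choice of samples or block, Cenpe, Hmmr, Kif18b, Kif23 and Nek2 passed in Het versus WT, and Aurkb and Spc25 in KO versus Het, where they had missed the threshold. Over all genes, the median log2 fold change moved by under 0.1 with every scaling. Same-numbered libraries correlated at -0.106 to 0.0844 in their deviations from the group means, and other pairs across genotypes at -0.137 to 0.0982. No pairing by replicate number showed. With 3 libraries per genotype these values cannot tell whether libraries shared a litter or batch. With the replicate number as a block, 49 members were called in KO versus WT, 35 in Het versus WT and 25 in KO versus Het. Low counts limit genes such as Kif20b and Orc1, and 3 libraries per genotype limit every test.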
